A study of Mus musculus with 2 samples.

Results

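Fast transmission in the nervous system runs through ligand-gated ion channels, and 34 genes that encode their subunits were examined for open chromatin in embryonic mouse retina. The set holds 17 ionotropic glutamate receptor genes (AMPA, kainate, NMDA and delta classes) and 17 genes of GABA-A and glycine receptors, out of 21938 protein-coding genes. The genes were taken by name, and all 34 had a protein-coding entry in the annotation. The study has 1 group, retina of B6NCrl mouse embryos of both sexes pooled at embryonic day 14.5, with 2 biological replicates assayed by DNase-seq. In this assay the enzyme DNase I cuts accessible DNA, and the authors called narrow peaks of 150 bp and wider hotspots in each library on its own. The labels give both replicates 1 donor label with separate biosample labels, and healthy, unperturbed tissue, so no treatment, genotype or time is compared. Whether the replicates come from separate litters or pools is not stated, so the spread between them may be technical. Whole retina is a mixture of cell types, and a weaker peak in all cells cannot be told apart from a strong peak in a few.

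Each deposited peak has a score from 1 to 150, whose meaning is not stated, and which was turned into a percentile rank within its library, where 100 is the strongest peak. A promoter peak overlaps the 1 kb on either side of any annotated transcription start site (TSS) of a gene, and a gene with one is called open here. A distal peak lies more than 1 kb from every TSS and was assigned to a receptor gene when the closest TSS of any protein-coding gene was one of its own, although it may act on another gene. Replicate 1 had 165269 peaks and replicate 2 had 219308, with median scores of 29 and 48, so counts were compared within a library. The receptor genes held 94 promoter peaks and 399 distal peaks in replicate 1, and 112 promoter peaks and 614 distal peaks in replicate 2. All 10 retinal marker genes, among them the eye field gene Rax, the progenitor gene Lhx2 and the ganglion cell genes Atoh7 and Pou4f2, were open in both libraries, and none of 8 markers of liver, blood, endothelium, microglia and muscle was open in either. Among all protein-coding genes 68.8% were open in both. The lists differ in the CpG ratio at the 5' end, observed over expected, with medians of 0.688 and 0.265. In the CpG bins of all genes that hold these medians, 97.9% and 54.5% of genes were open in both libraries. How far the split follows CpG content was not tested.

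Ionotropic glutamate receptors are tetramers that pass cations and depolarize the cell. GABA-A and glycine receptors are pentamers of the cys-loop family that pass chloride, which inhibits mature neurons and can depolarize immature ones. In the mature retina, glutamate carries the signal from photoreceptors to bipolar cells and on to ganglion cells, while GABA and glycine are used by horizontal and amacrine cells. At the stage sampled here, ganglion cells, horizontal cells, cone precursors and early amacrine cells are being born beside dividing progenitors, and bipolar cells are formed later.

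To show what the strongest non-coding open sites look like, the distal peak found in both libraries with the highest lower rank and no overlap with an exon is printed for each of 6 receptor groups, as the plus strand of mm10 (GRCm38) within the bounds of the replicate 1 peak. Capitals mark a match to 1 of 7 motifs, and a sequence without capitals holds no such match within those bounds. Only the RE1 motif was allowed mismatches, so near matches to the other motifs are not marked. At the Grin2b site the peak of replicate 2, at chr6:135907656-135907805, holds a match to the RFX motif that lies wholly past the end of the sequence printed. The sites lie at chr11:57298416-57298565 in an intron of the AMPA gene Gria1, chr9:42897436-42897585 in an intron of the kainate gene Grik4, chr6:135907636-135907785 in an intron of the NMDA gene Grin2b, chr14:34810876-34811025 upstream of the delta gene Grid1, chr16:59420996-59421145 in an intron of the GABA-A rho gene Gabrr3, and chr11:55571276-55571425 in an intron of the glycine gene Glra1.
Gria1: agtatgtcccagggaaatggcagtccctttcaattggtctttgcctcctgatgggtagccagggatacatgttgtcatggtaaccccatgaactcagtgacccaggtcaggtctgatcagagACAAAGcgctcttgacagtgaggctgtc
Grik4: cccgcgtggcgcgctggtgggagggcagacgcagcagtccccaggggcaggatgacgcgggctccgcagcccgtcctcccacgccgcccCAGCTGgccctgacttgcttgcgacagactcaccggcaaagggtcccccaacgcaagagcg
Grin2b: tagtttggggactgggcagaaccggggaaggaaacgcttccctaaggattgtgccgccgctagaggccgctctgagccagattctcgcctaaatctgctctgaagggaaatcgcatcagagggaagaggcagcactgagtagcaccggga
Grid1: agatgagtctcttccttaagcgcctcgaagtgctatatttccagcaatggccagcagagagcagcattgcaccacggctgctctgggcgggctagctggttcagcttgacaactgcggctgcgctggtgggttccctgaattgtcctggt
Gabrr3: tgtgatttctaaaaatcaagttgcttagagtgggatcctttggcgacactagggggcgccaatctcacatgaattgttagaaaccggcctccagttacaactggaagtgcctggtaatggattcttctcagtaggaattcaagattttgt
Glra1: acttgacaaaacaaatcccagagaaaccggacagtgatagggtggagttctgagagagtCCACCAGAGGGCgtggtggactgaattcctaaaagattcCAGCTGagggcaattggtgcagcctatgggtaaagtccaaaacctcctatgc

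The promoters of most receptor genes were already open at this stage, but their peaks were of modest strength. A promoter peak was present at 30 of 34 receptor genes in both libraries (88.2%, exact Clopper-Pearson 95% interval 72.5 to 96.7%, which covers counting error only), and at the same 30 in each library taken alone. The corresponding shares of all protein-coding genes were 69.7% for replicate 1, 71.3% for replicate 2 and 68.8% for both. Receptor genes are long, with a median of 161 kb. Of the 1332 protein-coding genes at least that long, 93.9% were open in both libraries. The 88.2% covers receptor genes of every length, and the 4 that were not open measure only 14.6 to 57.2 kb. Among genes over 100 kb, all 20 receptor genes were open in both libraries, against 92.3% of 2492 protein-coding genes. The 17 glutamate receptor genes were all open, whereas 13 of 17 GABA-A and glycine receptor genes were. The 4 genes without a promoter peak in either library were Gabra6, an alpha subunit best known from cerebellar granule cells, and Gabrr1, Gabrr2 and Gabrr3, the rho subunits that form slowly desensitizing GABA receptors of retinal bipolar cells.

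The median rank of the strongest promoter peak over the 30 open receptor genes was 86.4 in replicate 1 and 86.9 in replicate 2, against 95.2 and 96.1 over all genes open in both libraries. In both libraries 29 of the 30 lay below the median of all open genes, and the exception was Grik4. Only Gria2, Gria4, Grik2, Grik4 and Grin2d, all glutamate receptor genes, reached a rank of 90 or more in both libraries. That is 5 of 34, where 47.7% of all protein-coding genes and 69.4% of those open in both libraries reached it. No GABA-A or glycine receptor gene did so in both libraries, and 3 of them (Gabrg1, Glra1 and Glrb) did in 1 of the libraries. The median over open glutamate receptor genes was 88.5 and 88.3, and that over open GABA-A and glycine receptor genes was 83.6 and 84.6. Across the 30 genes, which are not independent replicates, the ranks of both libraries had a Spearman rho of 0.804.

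**Figure D1:**
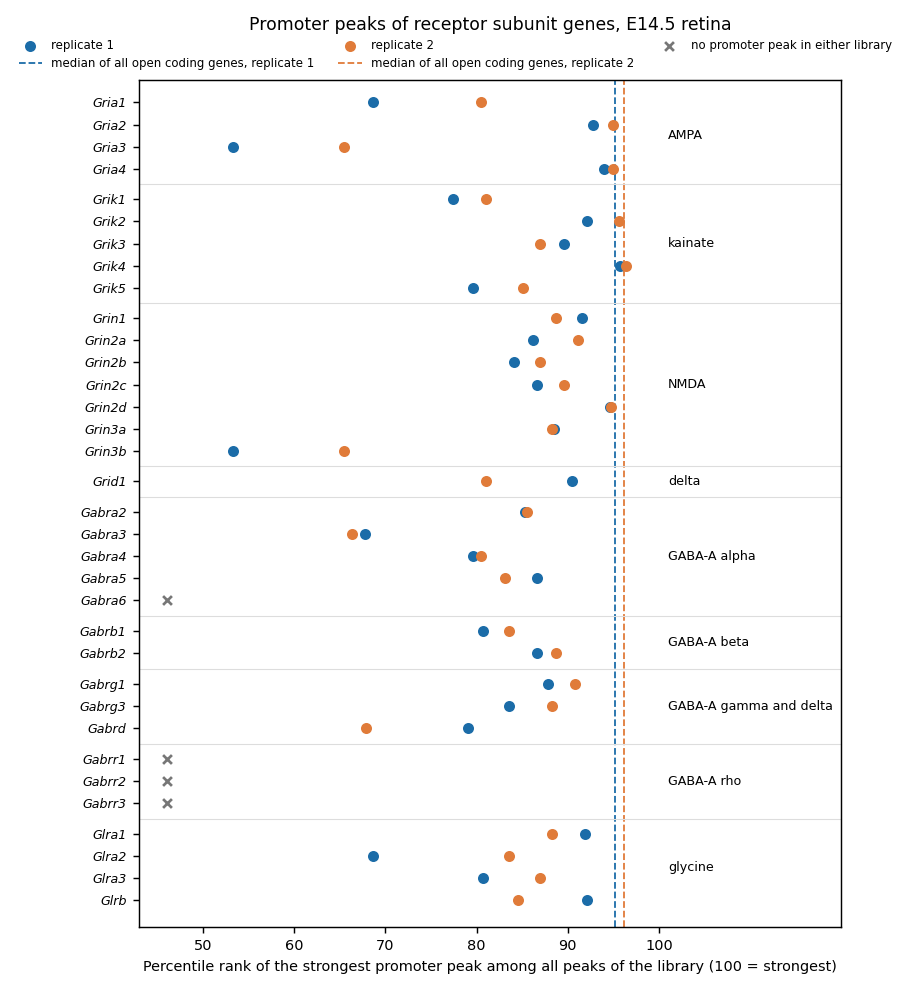
Percentile rank of the strongest promoter peak (x axis, 100 is the strongest peak of the library) for each of 34 receptor genes grouped by class (rows); points are the values of replicate 1 and replicate 2, crosses mark genes with no promoter peak, and dashed lines are the medians of all protein-coding genes open in both libraries (95.2 and 96.1). At 29 of 30 open genes each point lies left of the line of its own library, and the 3 rho genes and Gabra6 have crosses.

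Among AMPA receptor genes, which encode the channels of fast excitatory synapses, Gria4 and Gria2 stood far above Gria1 and Gria3. Gria4, for the GluA4 subunit (chr9:4417896-4796234, minus strand), had its strongest promoter peaks at scores of 102 and 121, ranks of 94.0 and 95.0. In replicate 1 that peak lay 23 bp downstream of the 5' end of the gene and in replicate 2 it was a second peak 523 bp downstream, and each library held both. Gria2, for the subunit whose edited form makes AMPA channels impermeable to calcium, had scores of 96 and 121 at the same site 116 bp upstream of its 5' end, ranks of 92.8 and 95.0. Gria1 had scores of 44 and 85, ranks of 68.6 and 80.5, and Gria3 on the X chromosome had scores of 31 and 62, ranks of 53.3 and 65.5. The order of Gria4 and Gria2 above Gria1, and of Gria1 above Gria3, was the same in both libraries. At Gria3 replicate 1 spread the signal over 6 promoter peaks with ranks from 20.2 to 53.3, and the strongest was not overlapped by a peak of replicate 2. The hotspot at the promoter, whose −log10 false discovery rate is capped at 100 in the deposited lists, reached 5.40 at Gria1 and 4.04 at Gria3 in replicate 1 and the cap at both in replicate 2.

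Kainate receptor genes included the strongest promoter peak of the whole set, at Grik4. Grik4 (chr9:42518135-42944493, minus strand) encodes a high-affinity subunit that needs a partner such as GluK2 to form a channel, and its scores were 111 and 127, ranks of 95.8 and 96.4. Both libraries held a pair of strong peaks there, centred 118 bp upstream of the 5' end (ranks 95.8 and 90.4) and 398 and 418 bp upstream (ranks 94.6 and 96.4). The partner gene Grik2 had ranks of 92.1 and 95.7, with further promoter peaks at internal TSSs, the strongest 5895 and 5915 bp inside the gene at ranks of 75.1 and 83.6. Grik3 ranked 89.6 and 86.9, and Grik1 ranked 77.4 and 81.0. Grik5, the other high-affinity subunit gene, ranked 79.6 and 85.1, but every one of its promoter peaks also lay in the promoter window of the neighbouring gene Zfp574, so these peaks cannot be given to 1 of the genes.

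All 7 NMDA receptor genes were open, and 6 of them ranked between 84.1 and 94.7 in both libraries. NMDA receptors are coincidence detectors that need glutamate and a co-agonist, and they hold the obligatory subunit encoded by Grin1. Grin1 ranked 91.6 and 88.7, with a second open TSS region 14.0 kb inside the gene at ranks of 80.7 and 84.6. Of the genes for the glutamate-binding subunits, Grin2a ranked 86.2 and 91.1, Grin2b 84.1 and 86.9, Grin2c 86.6 and 89.6, and Grin2d 94.6 and 94.7. The peak of Grin2d (chr7:45831883-45878378, minus strand) had scores of 105 and 120 but lay 12.2 kb inside the gene, 958 and 978 bp downstream of an internal TSS, and no peak lay within 1 kb of its 5' end. The CpG ratio at that 5' end, observed over expected, was 0.0870, in the lowest of 10 bins of all genes. For the glycine-binding GluN3 subunits, Grin3a ranked 88.5 and 88.3, and Grin3b, a gene best known from motor neurons, had a single promoter peak at scores of 31 and 62, ranks of 53.3 and 65.5. Grin3b shared the lowest rank of the set with Gria3 in each of the libraries, and its promoter hotspot was the weakest of the set in both, at 2.09 and 5.52.

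Grid1 encodes the delta receptor GluD1, which binds cerebellin at synapses and is not opened by glutamate in the usual way. Its strongest promoter peak, 417 and 437 bp upstream of the 5' end (chr14:34820108-35583379, plus strand), had scores of 87 and 86, ranks of 90.5 and 81.0. An almost equal score is a lower rank in replicate 2, where the median score was higher. The promoter held 6 peaks in replicate 1 and 4 in replicate 2, and the CpG ratio at the 5' end was 0.896, in the highest bin.

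GABA-A receptor genes outside the rho class were open at 9 of 10 loci, with ranks that stayed under 91. Among alpha subunit genes, which shape the GABA site and the pharmacology of the receptor, Gabra2 (chr5:70957597-71095849, minus strand) ranked 85.4 and 85.5 at scores of 73 and 95. Gabra5, for a subunit of extrasynaptic receptors, ranked 86.6 and 83.1, and Gabra4 ranked 79.6 and 80.5. Gabra3 on the X chromosome ranked 67.8 and 66.3, and it was open although its 5' end had a CpG ratio of 0.0904, in the lowest bin, where 8.80% of all genes were open in both libraries.

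The beta subunits form the GABA site together with the alpha subunits. Gabrb2 (chr11:42419757-42629028, plus strand) ranked 86.6 and 88.7 at scores of 76 and 102, with peaks 1.49 and 1.51 kb inside the gene at an internal TSS, and it held 4 promoter peaks in replicate 1 and 8 in replicate 2. Gabrb1 lies on chromosome 5 head to head with Gabra4, and the 5' ends of the pair overlap by 195 bp. Their shared peak at that point ranked 79.6 and 80.5, while the strongest promoter peak of Gabrb1, at ranks of 80.7 and 83.6, lay at a second TSS 41.8 kb inside the gene. Of the gamma and delta class, Gabrg1 (chr5:70751047-70842617, minus strand) had scores of 79 and 107, ranks of 87.8 and 90.8, at a peak 634 and 654 bp upstream of its 5' end. Gabrg3 ranked 83.6 and 88.3. Gabrd, for the delta subunit of extrasynaptic receptors, ranked 79.1 and 67.9.

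The 4 glycine receptor genes were all open. Glra1 (chr11:55514238-55608198, minus strand), for the alpha subunit dominant in the adult spinal cord, had scores of 92 and 101 at exactly the same 150 bp in both libraries, ranks of 91.8 and 88.3. Glrb, for the beta subunit that anchors the receptor to gephyrin, had a score of 93 in both libraries, which is a rank of 92.1 in replicate 1 and 84.6 in replicate 2. Glra3 ranked 80.7 and 86.9. Glra2 on the X chromosome, for the alpha subunit found in embryonic neurons, ranked 68.6 and 83.6 at the same site 58 bp upstream of its 5' end. The genes that ranked lower in replicate 2 than in replicate 1 numbered 9, and the other 21 ranked higher in replicate 2. The strongest promoter peaks of both libraries overlapped at 22 of 30 genes, and at 25 of 30 both peaks were centred within 500 bp of a TSS of the gene.

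At the 4 closed genes no hotspot lay in the promoter window of either library, so the call did not rest on the narrow peaks alone. The peak nearest to a TSS of Gabra6 was 5998 bp away in replicate 1 (rank 60.5) and 5499 bp away in replicate 2 (rank 16.8). Gabrr1 had its nearest peak 6630 and 6670 bp from the TSS at ranks of 14.8 and 39.3, and Gabrr2 had peaks of low rank (4.65 and 16.8) 4479 and 3259 bp away. At Gabrr3 the nearest peak lay 2099 bp from the TSS in replicate 1 (rank 40.7) and 3461 bp away in replicate 2 (rank 84.6). Gabrr2 and Gabrr1 are neighbours on chromosome 4 with 5' ends 69.5 kb apart, and Gabra6 lies head to head with Gabrb2, 98.7 kb between their 5' ends, where Gabrb2 was open and Gabra6 was not.

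CpG-rich promoters are open in most tissues, so openness and strength were set beside the CpG ratio within 500 bp of the 5' end. The 4 closed genes had ratios of 0.160 (Gabra6), 0.150 (Gabrr2), 0.270 (Gabrr1) and 0.267 (Gabrr3), in bins 2 and 4 of 10, where 19.1% and 54.5% of all protein-coding genes were open in both libraries. In bins 1 to 4 together 7 of 11 receptor genes were open (63.6%), against 28.7% of the 8775 genes of those bins. The receptor genes are not spread evenly over these bins, since 6 of the 11 lie in bin 4. In bin 4 alone 4 of 6 were open, against 54.5% of all genes there. In every higher bin all receptor genes were open, where 83.6 to 99.2% of all genes were. The rank of the strongest peak was low at a given CpG content as well. Of the 30 open genes, 27 lay below the median of the open genes of their own CpG bin in replicate 1, 25 in replicate 2 and 25 in both. In bins 9 and 10 the 5 receptor genes (Grik3, Grik4, Grin1, Grid1 and Gabra5) had a median rank of 90.5 and 86.9, against 97.5 and 97.8 for the 4349 open genes of those bins. The median length of all protein-coding genes was 17.4 kb. The 1251 open genes at least as long as the receptor median had median ranks of 93.2 and 94.2, also above the 86.4 and 86.9 of the receptor genes. Among open genes over 100 kb, the 20 receptor genes had 85.8 and 86.9, against 94.0 and 94.7 for all 2300.

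**Figure D2:**
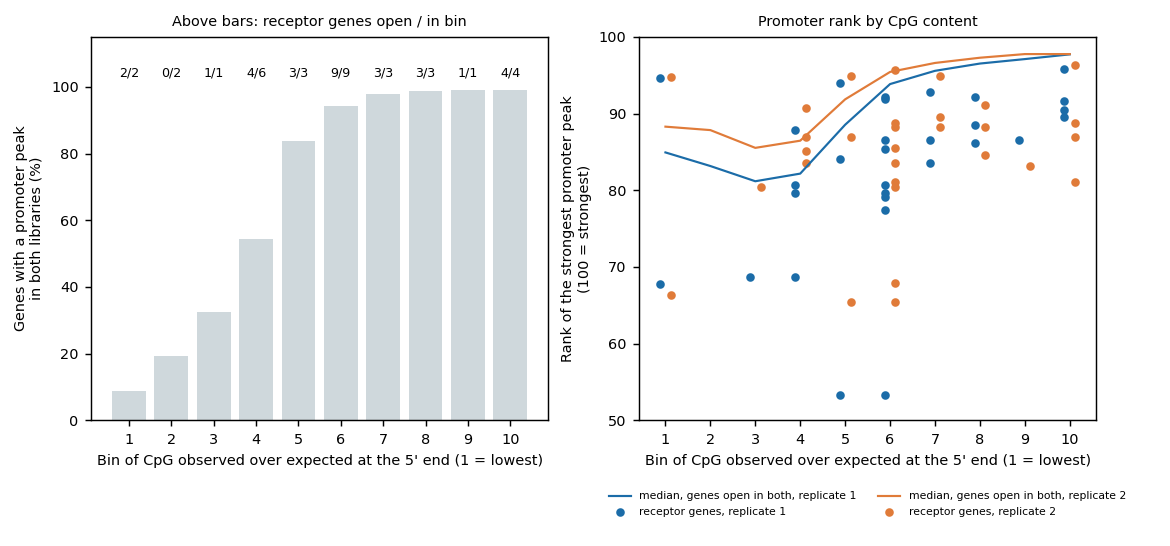
Left: share of protein-coding genes with a promoter peak in both libraries (y axis, %) in 10 bins of the CpG observed over expected ratio within 500 bp of the 5' end (x axis), with the number of receptor genes open and in the bin above each bar. Right: rank of the strongest promoter peak of each open receptor gene (points) and the median of all genes open in both libraries (lines) by the same bins. Of 30 open receptor genes, 27 lie under their line in replicate 1 and 25 in replicate 2.

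Distal peaks were fewer around receptor genes than the length of genome around them would give at the genome average. The 34 genes are nearest to 14.3 Mb of genome, 0.525% of it, and held 27.9 and 42.9 distal peaks per Mb in replicate 1 and replicate 2, against 43.9 and 61.0 per Mb over all protein-coding genes. The ratios were 0.636 and 0.704. These ratios pool the lengths of all members, and Grik2 alone is nearest to 2800 kb. Per gene the gap was smaller, with a median density of 29.1 and 44.5 per Mb over receptor genes. The median over all protein-coding genes was 34.3 and 50.1 per Mb. At least 1 distal peak was present in both libraries at 31 of 34 receptor genes, where 65.1% of all protein-coding genes had one, and the median member is nearest to 307 kb of genome, against 45.1 kb for all genes. The exceptions were Glra2, with 0 and 5, Grin1, with 1 and 0, and Grin3b, with 1 and 0.

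By class, the 17 glutamate receptor genes held 324 and 476 distal peaks, 0.729 and 0.770 of the density of the genome, and the 17 GABA-A and glycine receptor genes held 75 and 138, or 0.410 and 0.543 of it. Glycine receptor genes had 13.3 and 19.0 per Mb, AMPA receptor genes 20.5 and 32.4, kainate receptor genes 36.6 and 46.4, and NMDA receptor genes 32.9 and 53.5. The rho genes, whose promoters were closed, together had 15 distal peaks in each library over 0.165 Mb, which is 90.9 per Mb and above the genome average in both. Taken alone, Gabrr1 and Gabrr2 lay above the average in both libraries. Gabrr3 held 111 per Mb in replicate 1 and 55.7 in replicate 2, where the genome average was 61.0. Class values rest on few genes. Of the 34 members, 19 lay below the genome average in both libraries while 8 lay above it in both. Of all 21938 protein-coding genes, 10660 lay below it in both and 7740 lay above it in both.

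**Figure D3:**
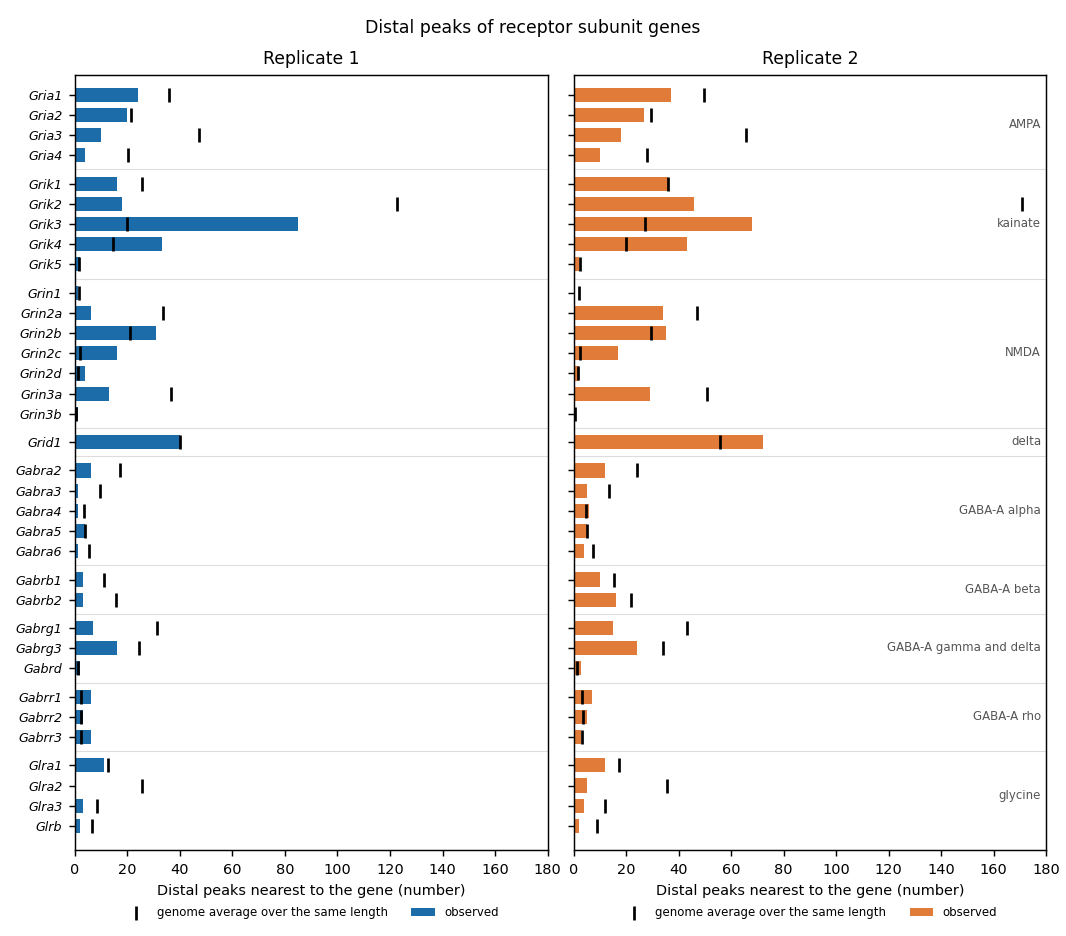
Number of distal peaks nearest to each of 34 receptor genes (bars, x axis) in replicate 1 (left) and replicate 2 (right), with a tick for the number that the genome average of that library would give over the same length of genome. Grik3 (85 and 68) and Grik4 (33 and 43) exceed their tick in both libraries, and Grik2 (18 and 46) falls far short of it.

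Kainate receptor genes differed widely in the density of distal peaks. Grik3 had 85 distal peaks in replicate 1 and 68 in replicate 2, the most of any member in replicate 1, which is 190 and 152 per Mb of its 448 kb. In replicate 1, 21 of these peaks lay within 14.9 kb (chr4:125376456-125391365), 20 of them at ranks under 20, and 2 of the 21 were overlapped by a peak of replicate 2. Without them Grik3 had 64 distal peaks in replicate 1, or 143 per Mb, still above the genome average. Grik4 had 33 and 43 (101 and 131 per Mb), of which 32 and 43 lay in its own introns. Grik2 is nearest to 2800 kb of genome and held 18 and 46 distal peaks, 6.43 and 16.4 per Mb, where the genome average would give 123 and 171. A peak of the other library overlapped 51.8% and 67.6% of the Grik3 peaks of replicate 1 and replicate 2, and 87.9% and 62.8% of the Grik4 peaks.

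Grid1 had 40 distal peaks in replicate 1 and 72 in replicate 2, 38 and 62 of them in its own introns. In replicate 1, 10 of the 40 lay within 4.29 kb at ranks of 14.8 or lower, and no peak of replicate 2 overlapped them. The printed site 9.16 kb upstream of its start scored 105 and 118 and ranked 94.6 and 94.2, the strongest shared distal peak of any member. The printed Grik4 site, 47.0 kb downstream of the TSS, scored 100 and 113 and ranked 93.6 and 92.8. The printed Grin2b site, 264 kb downstream of the nearest TSS of the gene, scored 97 and 111 and ranked 93.0 and 92.2, within a locus of 31 and 35 distal peaks. These 3 genes supplied the only distal peaks of members that ranked 90 or more in replicate 1, namely 2 at Grid1 and 1 each at Grik4 and Grin2b. In replicate 2 there were 8 such peaks, and Gabrb1, Gabrg3 and Grik2 added 1 each.

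Gria1 had 24 and 37 distal peaks, of which 14 and 23 lay upstream of their nearest TSS, and its printed site, 122 kb from the nearest TSS, ranked 88.2 and 88.7. Gria2 had 20 and 27, of which 16 and 19 were intergenic. Grin2a had 6 distal peaks in replicate 1 and 34 in replicate 2, so its count rests largely on replicate 2. Grin2c held 16 and 17 distal peaks in only 41.5 kb, the highest density of all members at 386 and 410 per Mb, but 10 of them in each library lay in introns of another gene, in replicate 1 all of Tmem104. At Gabrr3 the printed intronic site, 13.7 kb from the closed promoter, scored 83 and 100 and ranked 89.2 and 87.8, with its hotspot at the cap in both libraries. At Gabrr1 the strongest distal peak, 13.2 kb upstream, ranked 80.7 and 82.6. Gabrr2 had no distal peak of high rank, its best shared one being at 26.2 and 48.9. The printed Glra1 site, 36.4 kb from the nearest TSS, ranked 81.2 and 82.1.

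**Figure D4:**
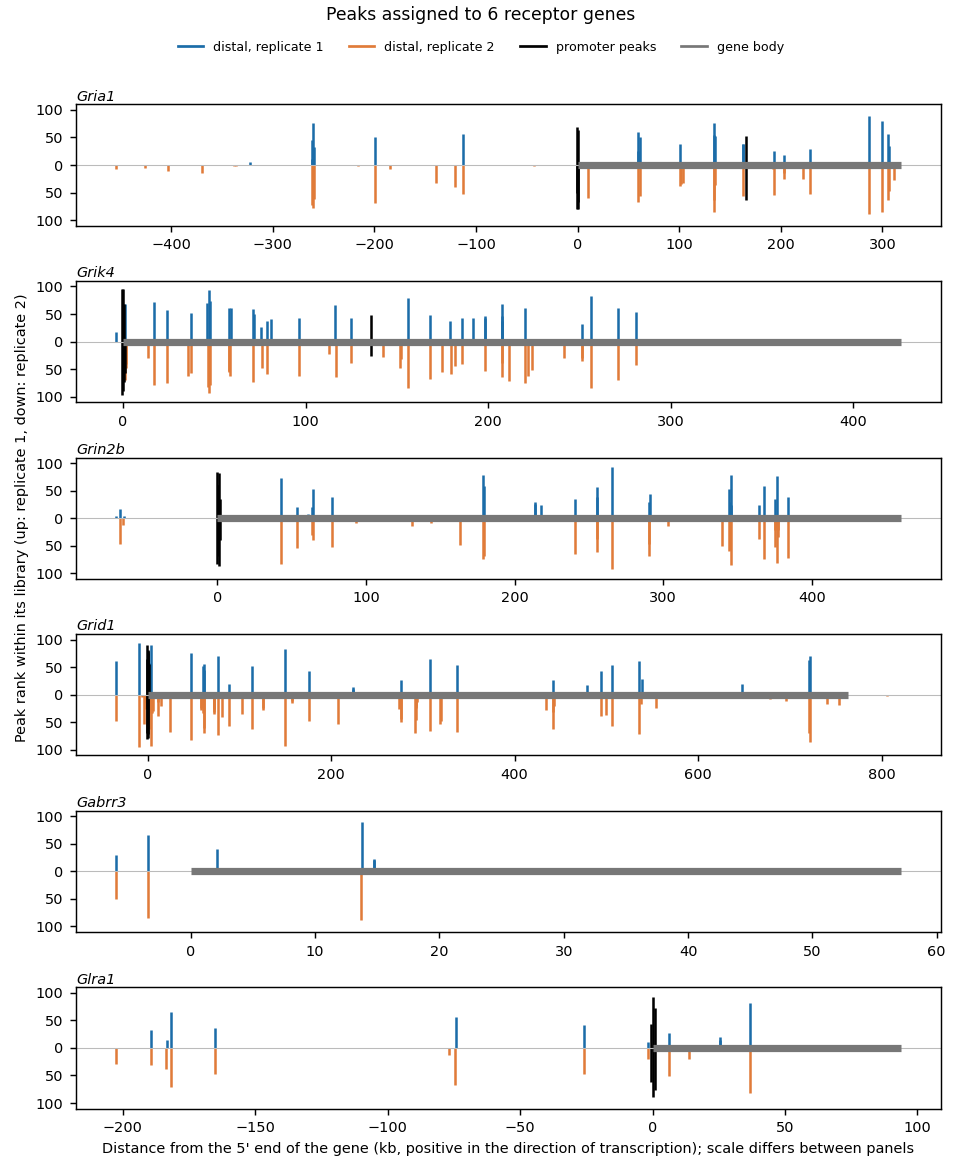
Peaks assigned to 6 receptor genes by distance from the 5' end of the gene (x axis, kb, with a different scale in each panel); line height is the rank of the peak within its library, drawn upwards for replicate 1 and downwards for replicate 2, black lines are promoter peaks and the grey bar is the gene body. Gabrr3 has no black line but an intronic peak of rank 89.2 and 87.8, and the highest distal line at Grid1 lies 9.16 kb upstream.

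Most distal peaks of receptor genes were of middle rank. Their median rank was 40.7 in replicate 1 and 39.3 in replicate 2, against 43.2 and 44.4 over all distal peaks, and 1.00% and 1.30% of them ranked 90 or more, against 3.33% and 4.55% of all distal peaks. They lay in introns of the receptor gene itself in 56.9% and 58.3% of cases and between genes in 34.3% and 33.2%. A peak of the other library overlapped 68.2% of them in replicate 1 and 44.0% in replicate 2, against 71.2% and 49.9% of all distal peaks. Among genes over 100 kb, 20 receptor genes had 26.6 and 42.4 distal peaks per Mb, against 43.7 and 65.2 for 2492 genes of that length. With only peaks more than 10 kb from any TSS counted, a comparison of these long genes that was added after seeing the data, the values were 22.2 and 35.0 per Mb against 29.5 and 44.9. These lengths include the bases near a TSS, which hold no distal peak. With peaks and bases both limited to those more than 10 kb from any TSS, also added after seeing the data, all 34 receptor genes had 26.3 and 40.5 per Mb, against 38.9 and 56.2 per Mb of the genome, ratios of 0.675 and 0.721.

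RE1 is the DNA element bound by REST, a repressor that keeps neuronal genes silent in non-neuronal cells and in progenitors. It was searched as TCAGCACC, any 2 bases and GGACAG with up to 2 mismatches on either strand. Within 1 kb of the 5' end a match was present at 6 of 34 receptor genes (17.6%), against 3.70% of all protein-coding genes. With every TSS counted the same 6 genes had a match, against 7.64% of all genes. The genes were Gria2, Grin1 and Grin2c among the glutamate receptors, and Gabrd, Glra1 and Glra3 among the others. At 5 of these genes a match lay inside a peak in both libraries, and that peak was the strongest promoter peak of the gene for all of them except Glra3 in replicate 2. These matches are printed because they fall inside the peaks that set the promoter ranks, with the fixed letters in capitals as the genome has them and the 2 free bases in lower case.
Grin1, chr2:25319018-25319033, minus strand, 0 mismatches: TCAGCACCtcGGACAG
Gria2, chr3:80802990-80803005, plus strand, 1 mismatch: TTAGCACCgcGGACAG
Glra1, chr11:55607938-55607953, plus strand, 1 mismatch: TCAGCACCacGGAGAG
Glra3, chr8:55940764-55940779, minus strand, 1 mismatch: TCAGCACCtcAGACAG
Gabrd, chr4:155397681-155397696, plus strand, 1 mismatch: TCAGCACCgaGGACGG

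The printed Grin1 match lay 69 bp downstream of a TSS of the gene, in the untranslated part of an exon, inside the peaks of rank 91.6 and 88.7. The printed Gria2 match lay 163 bp upstream of a TSS, inside the peaks of rank 92.8 and 95.0. The match at Grin2c, with 2 mismatches and 436 bp upstream of a TSS, lay in no peak. Gria2 and Grin1 each had a further match with 2 mismatches, 12 and 267 bp upstream of a TSS, which lay in no peak either. Whether REST was bound at any of them is not measured by these data.

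Matches to RE1 were also present in distal peaks of receptor genes, in 9 of 399 peaks of replicate 1 (2.26%) and 11 of 614 of replicate 2 (1.79%), against 0.848% and 0.733% of all distal peaks. They belonged to 10 genes, and 8 sites at 8 genes were found in both libraries. Those genes were Gria1, Grik2, Grik3, Grik4, Grin2a, Grin3a, Grid1 and Glra1, of which 7 are glutamate receptor genes. Glutamate receptor genes also held most of the distal peaks searched, 324 of 399 in replicate 1 and 476 of 614 in replicate 2. The matches without a mismatch in distal peaks are the following.
Gria1, chr11:56812309-56812324, plus strand, 199 kb upstream: TCAGCACCacGGACAG
Grid1, chr14:34867445-34867460, plus strand, 47.3 kb downstream in replicate 1: TCAGCACCtcGGACAG
Gabra2, chr5:71128076-71128091, minus strand, 32.2 kb upstream, replicate 2 alone: TCAGCACCaaGGACAG

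The Gria1 site ranked 51.5 and 69.4, the Grid1 site 75.7 and 81.6, and the Gabra2 site 27.6 in replicate 2. The distal peaks with an RE1 match ranked between 27.6 and 82.7. Of the other motifs, the E-box CAGCTG of basic helix-loop-helix factors was in 15.0% and 17.1% of distal peaks of receptor genes, against 14.7% and 15.2% of all distal peaks. The homeodomain motif TAATTA was in 7.02% and 7.98%, against 5.77% and 7.17%, and GGATTA of OTX and CRX factors in 6.27% and 6.84%, against 5.79% and 6.39%. ACAAAG of SOX factors was in 14.3% and 11.9%, against 14.7% and 14.9%. GTTGCCATG of RFX factors was in 0 and 6 peaks, 0% and 0.977%, against 0.670% and 0.719%, so the libraries lay on opposite sides of all distal peaks. The core of the CTCF motif, which marks insulators and loop anchors, was in 2.01% and 1.79%, against 5.06% and 3.94%, and the printed Glra1 site carries 1 such match next to an E-box. Within 1 kb of the 5' end, shares of receptor genes also departed from those of all genes for motifs other than RE1. The E-box was at 70.6% against 62.1%, the homeodomain motif at 44.1% against 32.7%, and the OTX and CRX motif at 47.1% against 49.4%. The SOX motif was at 58.8% against 77.1%, RFX at 5.88% against 2.16%, and the CTCF core at 2.94% against 1.72%. The distal shares cover peaks that share loci, and a match is a stretch of letters and not a bound site.

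**Figure D5:**
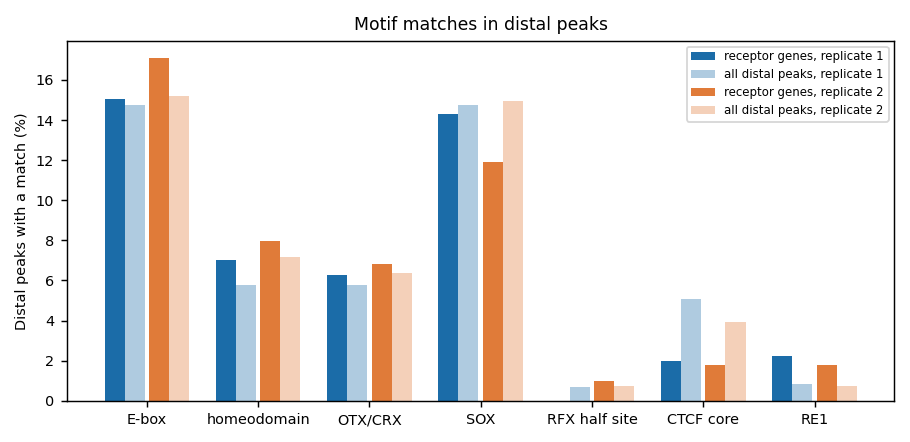
Share of distal peaks that hold a match to each of 7 motifs (y axis, %), for peaks nearest to receptor genes (dark bars) and for all distal peaks (pale bars) in replicate 1 (blue) and replicate 2 (orange). RE1 matches are at 2.26% and 1.79% against 0.848% and 0.733%, and the CTCF core at 2.01% and 1.79% against 5.06% and 3.94%.

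Genes whose products work with these receptors were open nearly throughout, and some lists had higher median ranks than the receptor genes. For scale, 68.8% of all protein-coding genes were open in both libraries. Of the genes open in both, 69.4% ranked 90 or more in both. All 13 auxiliary subunit genes were open in both libraries, with median ranks of 91.1 and 90.8, and 7 of them ranked 90 or more in both. Ordered by the lower of both ranks, they were led by Cacng2 (95.2 and 97.0), for stargazin, which carries AMPA receptors to the synapse, Neto2 (98.1 and 94.0), for a kainate receptor partner, and Cnih2 (94.6 and 94.0), for a cornichon protein of AMPA receptors. All 16 genes for scaffolds and anchors were open, with median ranks of 94.8 and 94.9, and 11 ranked 90 or more in both. The highest by the lower of both ranks were Dlg2 (99.5 in both), for the postsynaptic scaffold PSD-93, Nlgn2 (97.5 and 99.1), for the neuroligin of inhibitory synapses, and Homer1 (97.5 and 97.8).

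Of 15 genes for the synthesis and transport of glutamate, GABA and glycine and for chloride transport, 14 were open in both libraries, with median ranks of 88.0 and 87.8, and 3 ranked 90 or more in both. Slc12a2, for the chloride importer NKCC1 of immature neurons, ranked 94.8 and 94.5, Slc12a5, for the chloride exporter KCC2 of mature neurons, 92.6 and 91.8, and Gad1, for the GABA-making enzyme GAD67, 92.1 and 91.8. The gene that was open in replicate 2 alone was Slc17a8, for the vesicular glutamate transporter VGLUT3, at a rank of 47.5. All 10 metabotropic receptor genes were open, with median ranks of 86.6 and 89.1, near those of the ionotropic set, and Grm8 (94.8 and 96.1), Gabbr1 (94.2 and 96.8) and Grm2 (88.2 and 89.6) were the highest by the lower of both ranks. The 10 retinal marker genes had median ranks of 96.5 and 97.5. These lists are short and are given as counts and medians beside those of all open genes (95.2 and 96.1), with no test.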

How the data were processed

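DNase-seq libraries of 2 biological replicates of E14.5 mouse retina were analysed from their peak and hotspot lists on mm10. Per the deposited file lists, calling was done library by library. Aligner, caller, filters and versions were not given in the sources used here. Peaks are 150 bp wide, and the score that the authors deposited with each runs from 1 to 150 with no stated meaning, so it served to rank peaks within a library alone. The hotspot lists deposited by the authors give the −log10 of a false discovery rate, capped at 100. The files hold no read counts, so sequencing depth is unknown and no limit of detection can be given. Both libraries were sequenced on several instrument models per the labels, replicate 1 on 1 model more, so instrument and replicate cannot be told apart.

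Exact duplicate lines (34 and 56) were removed. Genes and TSSs came from GENCODE M21 and sequence from GRCm38. The density of distal peaks divides them by the length of genome whose nearest protein-coding TSS belongs to the gene. CpG ratios were taken over the 500 bp flanking each 5' end, in 10 bins. Motifs were matched as fixed letters on both strands (the CTCF core as a consensus, RE1 with up to 2 mismatches), in whole peaks and within 1 kb of the 5' end. The counting steps were tested on simulated data. Python 3.11.15, numpy 2.4.6, pandas 2.3.3, scipy 1.17.1, pysam 0.24.0 and matplotlib 3.10.9 were used.

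With 1 group there was no contrast to test, and genes are not replicates, so values are given per library with no p-value. The receptor genes and the companion lists were chosen with earlier results of these data known. By the rule for naming, all 34 genes are accounted for, and the strongest promoter of each class, the closed genes, 1 shared distal site in each of 6 groups and up to 3 genes of each companion list are described in full. Alternatives covered promoter windows of 500 bp and 2 kb, the 5' end as the only TSS, peak filters, the distance that counts as distal, the assignment of distal peaks, the overlap between libraries, and leaving out each replicate.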

Additional observations from a re-analysis of the deposited data

How the results depend on the processing

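Of 64 values recomputed under alternatives, 53 stayed within the spread between the libraries (or within 1.5 times for counts) and 11 moved. The 30 open receptor genes became 29 with a promoter window of 500 bp, which lost Grin3b, and 29 with the 5' end as the only TSS, which lost Grin2d, and stayed at 30 under the other settings that were run. The median promoter rank over open receptor genes, 85.9 for the mean of both libraries, was 86.8 with a window of 2 kb and 83.8 with the 5' end as the only TSS, and 86.4 to 86.9 with 1 replicate left out. The mean number of distal peaks, 506.5, fell to 202 with peaks at or above the median score of their library and to 271 with peaks overlapped by the other library. The distal density over that of the genome, 0.670, was 0.605 and 0.614 under these filters, 0.726 with peaks inside the gene body alone and 0.927 with peaks more than 10 kb from any TSS. That last value divides by lengths that still hold the bases within 10 kb. Limited to bases beyond 10 kb, which are 84.3% of the length nearest to receptor genes and 63.5% of the genome, it was 0.698, and with both limits at 1 kb it was 0.643, both added after seeing the data. The share of distal peaks overlapped by the other library was 56.1%, and 87.1% with peaks at or above the median score. The causes of these moves were not tested beyond what each filter removes. With 2 libraries of unknown depth, a gene without a peak may hold an open site too weak to be called, and libraries with more peaks give more distal peaks per gene. No paired analysis was possible because the series has 1 group.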
